A study of Homo sapiens with 31 samples.

Results

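Of the 31 libraries in the series, the 15 that were most alike were compared here: 7 of C13* shCON and 8 of A2780 OlaR. The pair of groups was chosen for its likeness in expression, and the libraries of each group by their labels. Genes were tested if they reached 1 FPKM in at least 7 of these 15 libraries, which kept 11547 of the 19221 genes in the table. FPKM count the fragments that fall on each gene relative to its length and to the total for that library. C13* shCON cells are cisplatin-resistant C13* cells that carry a control shRNA, delivered with a lentivirus. A2780 OlaR cells were grown from A2780 under rising olaparib until their IC50 was at least 30-fold above that of A2780, and their labels state treatment with olaparib. The other groups were untreated A2780 (n = 8) and C13* shCEBPB (n = 8), in which an shRNA targets CEBPB. All are labelled as ovarian adenocarcinoma lines and grew in the same medium. Each group is 1 line. The methods call the replicates biological but do not say what separates them, so the p-values below measure only the spread between these libraries. Line of origin, drug exposure and virus cannot be told apart in this comparison.

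Olaparib inhibits PARP enzymes, and cells that repair DNA by homologous recombination tolerate it better than cells that cannot. C/EBPβ, the protein of CEBPB, is a transcription factor that binds promoters of inflammatory, metabolic and differentiation genes. The keratins named below form the filaments of epithelial cells: KRT5 and KRT14 mark the basal layer of stratified epithelium, and KRT4 and KRT13 the layers above it. The question addressed was which genes still differ between these resistant lines.

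FPKM summed to between 432000 and 449744 per shCON library and between 432948 and 454578 per OlaR library. Absolute depth is unknown. Relative depth, read from the steps of low values, was 0.854 to 1.2 in shCON and 0.863 to 1.18 in OlaR. Library codes are numbered within each group, and some OlaR values differed between numbers 1 to 3 and 4 to 8. Values within these ranges are therefore given beside the lists and repair genes that they change. The ranges were taken from OlaR and applied to shCON as well. Same-numbered libraries of the groups did not deviate together (mean r -0.261 over 7 pairs). A difference within a range is thus not one between matched libraries. One shCON library (replicate 1) has A2780 in its cell line field and C13* in its title. It was kept, and without it 71 rather than 68 genes were called at 2-fold.

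The likeness for which shCON and OlaR were chosen is given here as a description, with no test. Across 19221 genes, Pearson's r of log2(FPKM + 1) between a shCON and an OlaR library was 0.9896 to 0.9953. Within a group it was 0.9962 to 0.9988 in shCON and 0.9936 to 0.9987 in OlaR. Between OlaR and A2780 it was 0.8491 to 0.8555, and between shCON and shCEBPB 0.8817 to 0.8898. Over 1 common set of 12967 genes, 69 genes (0.532%) were called with at least a 2-fold difference between OlaR and shCON. The same count was 4517 (34.8%) between OlaR and A2780 and 3585 (27.6%) between shCON and shCEBPB.

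Genes that told A2780 from shCON placed OlaR with shCON. There were 162 genes of at least 10 FPKM in all A2780 libraries and under 1 in all shCON libraries. OlaR values did not choose these genes, but the OlaR group was chosen for its likeness to shCON, so this describes that likeness and is no separate support. In OlaR, 156 of these genes (96.3%) were under 1 FPKM in all libraries and 0 reached 10. The highest OlaR mean among them was 1.52 FPKM, in TMEM37. In the opposite direction there were 202 genes, of which 185 (91.6%) reached 10 FPKM in all OlaR libraries and 0 stayed under 1 in all. The OlaR libraries thus go against the expression pattern of the line from which their labels derive them. The cause was not tested.

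Epithelial markers were abundant in both groups. All 6 squamous markers (KRT5, KRT14, KRT6A, TP63, DSG3 and SFN) reached a mean of 1 FPKM, and their sum was 2542 to 3089 FPKM per shCON library and 2570.4 to 3370.4 per OlaR library, against 0.416 to 1.87 in A2780. All 5 simple epithelial markers did so too, with sums of 2312 to 2557 and 2531 to 3042 FPKM. Of the 5 ovarian or Müllerian markers only PAX8 reached 1 FPKM in either group, while WT1, MUC16, EMX2 and SOX17 stayed under 1. TP63, the master regulator of squamous epithelium, lay at 49.3 to 58.9 FPKM in shCON and 51.4 to 62.6 in OlaR, and the 95% interval of the log2 difference was -0.19 to 0.03. Endothelial markers summed to 0.428 to 0.802 FPKM per shCON library and 1.83 to 2.39 per OlaR library, where CDH5 alone reached a mean of 1 FPKM. Mesenchymal markers, of which VIM reached a mean of 1 FPKM in shCON and not in OlaR, summed to 28.4 to 32.5 FPKM per shCON library, 22.2 to 25 per OlaR library and 878 to 921 per A2780 library. Blood markers summed to at most 0.285 FPKM in shCON and 0.473 in OlaR.

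Most differences between shCON and OlaR were small. An adjusted p under 0.05 from limma (two-sided, Benjamini-Hochberg) was reached by 4876 of 11547 genes (42.2%), which are called different here, with 2650 (22.9%) higher and 2226 (19.3%) lower in shCON. Of these, 3406 (69.9%) differed by less than 1.25-fold. A difference of 2-fold or more was called in 68 genes (0.589%). In shCON, 43 of them (0.372%) were higher and 25 (0.217%) lower. The 95% interval of the difference lay within 1.5-fold in 10831 genes (93.8%), and 4212 genes (36.5%) were both called and within that limit. In 1913 genes (16.6%) no shCON library overlapped with an OlaR library. Within libraries 1 to 3, 2797 of the 11547 genes were called higher and 2683 lower in shCON. Within libraries 4 to 8, 3591 were called higher and 2929 lower. All differences below are log2(FPKM + 1) in shCON minus OlaR, so that a negative value is a gene higher in OlaR. On this scale the change of a low gene is understated, and ratios of mean FPKM are given beside it.

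**Figure D1:**
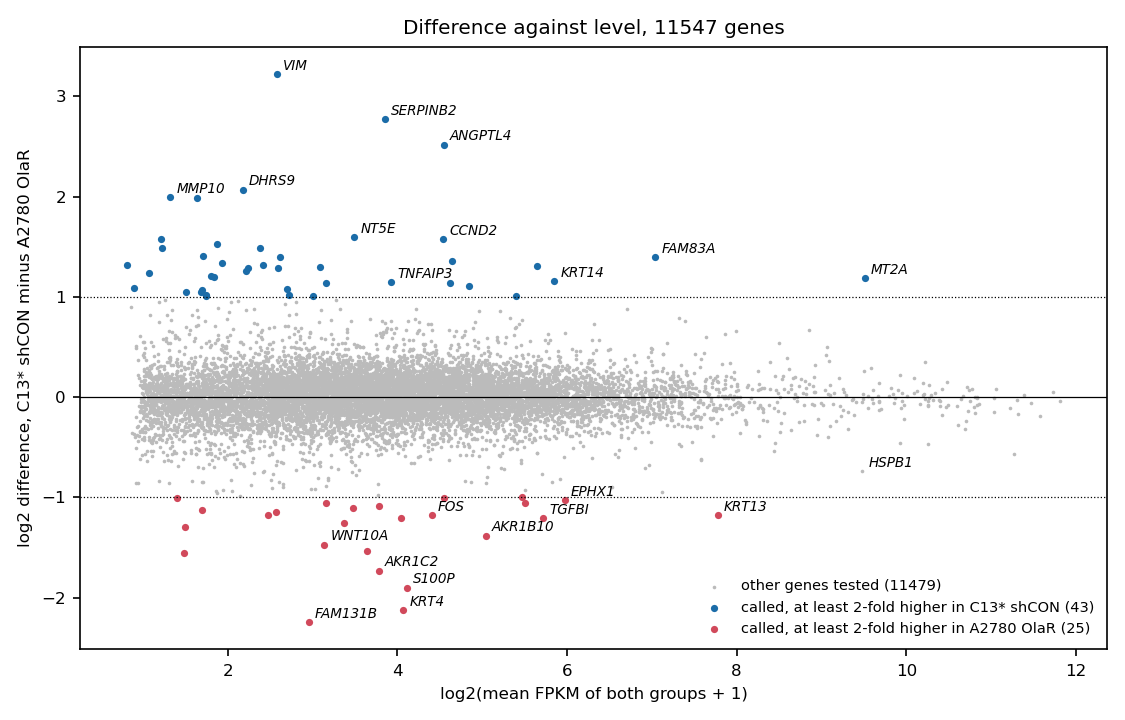
Log2 difference of log2(FPKM + 1), C13* shCON minus A2780 OlaR, on the vertical axis against log2(mean FPKM + 1) on the horizontal axis, with 1 point per gene tested. Dotted lines mark a 2-fold difference; the 43 and 25 genes called beyond them are coloured, and most of the 11547 genes lie near 0.

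The largest difference was in VIM, which encodes vimentin, the intermediate filament of mesenchymal cells (chromosome 10 of hg38, 17228241 to 17237593). It lay between 8.49 and 10.5 FPKM in shCON (median 10.1) and between 0.0857 and 0.265 in OlaR (median 0.159). The mean of shCON was 61.5 times that of OlaR, a log2 difference of 3.22 (standard error 0.05, adjusted p = 2.59e-18, limma). No shCON library overlapped with an OlaR library (two-sided exact permutation test over libraries, p = 0.000311, the smallest that 7 against 8 libraries allow, and the value for every gene below whose groups do not overlap). Genes named for their difference were picked among those without overlap, so for them this value follows from the choice and adds no support. VIM was at 784 to 827 FPKM in A2780 and 328 to 359.7 in shCEBPB, so shCON and OlaR were both far below the others. In bulk RNA, fewer cells of a type and less RNA per cell cannot be told apart. Its exons share 1275 bp with VIM-AS1 on the opposite strand, and whether the counting used strand is not stated.

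Several other genes higher in shCON than in OlaR were also high in A2780. MMP10, which encodes a matrix metalloproteinase, was at 2.64 to 3.51 FPKM in shCON, was listed at 0 in every OlaR library, and was at 783 to 899.8 in A2780 (adjusted p = 3.01e-15, limma). MMP3, encoding a related protease, was at 1.01 to 1.96 FPKM in shCON and likewise listed at 0 in OlaR. ANKRD1, a target of the YAP coactivator, had a mean of 643 FPKM in A2780, 2.47 ± 0.261 over the 7 shCON libraries (SD) and 0.161 ± 0.0712 over the 8 OlaR libraries. ALDH1A1, encoding an aldehyde dehydrogenase, was at 1.71 to 2.3 FPKM in shCON, 0.116 to 0.382 in OlaR and 998 to 1127 in A2780.

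The share of the A2780 level differed between genes, and its cause was not tested. The shCON mean was 1.21% of the A2780 mean for VIM, 1.34% for the smooth muscle gene TAGLN, 0.384% for ANKRD1, 0.366% for MMP10 and 0.184% for ALDH1A1. Over the 162 genes high in A2780, shCON was above OlaR in 111 and below it in 49. The median share of the A2780 mean was 0.464% in shCON and 0.252% in OlaR. These genes were chosen as under 1 FPKM in all shCON libraries, with no such limit on OlaR. Their levels are near 0 (median OlaR mean 0.0666 FPKM), so the split and the shares are limited by that choice. Chosen after their values were seen, COL3A1 (0.108%) and SLC2A3 (0.109%) were detected in every shCON library, while PTPRC, at 85.9 FPKM in A2780, was listed at 0 in all of them and HGF, at 185 FPKM in A2780, reached 0.0159 at most.

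**Figure D2:**
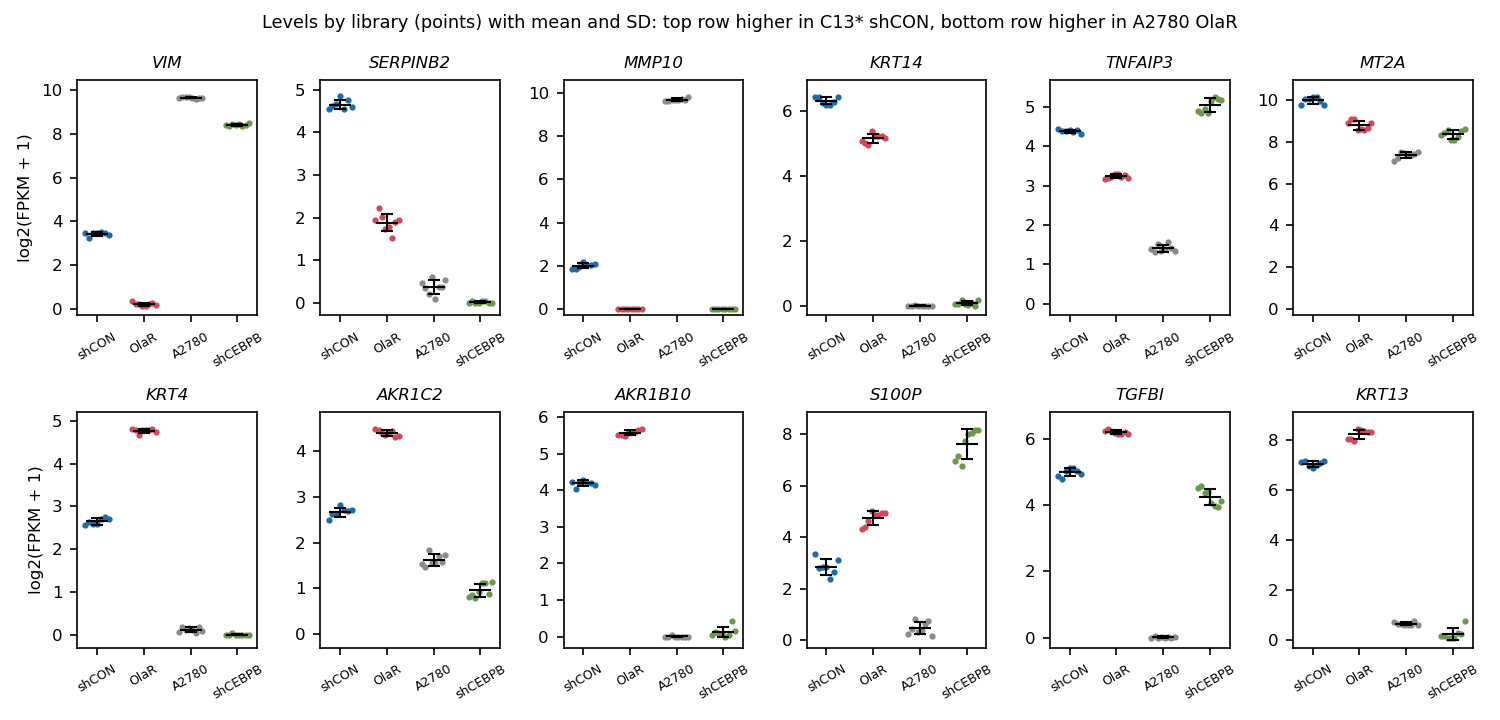
Log2(FPKM + 1) in each library (points) with the mean and SD of each group (bars) for 6 genes higher in C13* shCON (top) and 6 genes higher in A2780 OlaR (bottom), beside A2780 and C13* shCEBPB. The shCON and OlaR points do not overlap in any of the 12 panels, since genes named for their difference were picked among those without overlap.

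Other genes were higher in shCON than in A2780 as well as in OlaR, where the A2780 means lay between 0.0193 FPKM (FAM83A) and 15.2 FPKM (ANGPTL4). SERPINB2, which encodes an inhibitor of plasminogen activators, was at 22.4 to 27.7 FPKM in shCON (median 23.4) and 1.87 to 3.64 in OlaR (median 2.78). The shCON mean was 8.93 times higher (log2 difference 2.77, standard error 0.08, adjusted p = 2.35e-14, limma). ANGPTL4, encoding a secreted inhibitor of lipoprotein lipase, was at 36.2 to 43.6 and 4.41 to 7.14 FPKM, 6.46 times higher in shCON. Both genes separated the groups completely. DHRS9, encoding a retinol dehydrogenase, differed 8.31-fold (5.56 to 7.74 against 0.265 to 1.39 FPKM). CCND2, encoding cyclin D2, differed 3.17-fold (32.2 to 36.7 against 10.2 to 11.5 FPKM), and NT5E, encoding the ectonucleotidase CD73, 3.43-fold (14.9 to 18.2 against 3.81 to 6.1 FPKM). FAM83A, an adaptor in EGFR signalling, was the most abundant of the 15 largest rises, at 189.6 ± 5.65 FPKM (SD, n = 7) against 71.4 ± 5.16 (SD, n = 8). SERPINB2 shares 547 bp of its exons with another gene on its strand.

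In the opposite direction, FAM131B had the largest difference. It was at 1.5 to 1.97 FPKM in shCON (median 1.64) and 9.81 to 13 in OlaR (median 12.5), a mean 6.90 times higher in OlaR (log2 difference -2.24, standard error 0.06, adjusted p = 1.95e-14, limma). S100P, encoding a calcium-binding protein, was at 4.14 to 9.01 and 19 to 31.7 FPKM, 4.13 times higher in OlaR. The groups did not overlap in either gene. AQP3, encoding the glycerol channel of epidermis, was 3.23 times higher in OlaR (4.74 to 6.25 against 15.6 to 18.9 FPKM). WNT10A, encoding a WNT ligand of skin appendages, was 3.24 times higher (2.84 to 4.98 against 10.8 to 12.9 FPKM), and TGFBI, encoding a matrix protein induced by TGF-beta, 2.35 times (26.6 to 33.9 against 68.9 to 77.4 FPKM).

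Among the keratins, KRT14 was higher in shCON, while KRT4, KRT13 and the basal KRT5 and KRT15 were higher in OlaR. KRT14 was at 72.3 to 85.8 FPKM in shCON (median 76.5) and 29.7 to 40.3 in OlaR (median 35.4), a log2 difference of 1.16 (standard error 0.06, adjusted p = 1.03e-10, limma). KRT4 was at 4.95 to 5.79 FPKM in shCON (median 5.2) and 24.6 to 27 in OlaR (median 26.5), a log2 difference of -2.12 (standard error 0.04, adjusted p = 3.55e-17, limma). KRT13 was at 118 to 142 and 251 to 349 FPKM (log2 difference -1.18). None of these groups of libraries overlapped. KRT5, the partner of KRT14, was at 1368 to 1633 FPKM in shCON and 1619 to 1991 in OlaR, so it was slightly lower in shCON and overlapped (log2 difference -0.24, adjusted p = 0.00169, limma). KRT15, another basal keratin, named after its values were seen, had means of 48 FPKM in shCON and 58.4 in OlaR. KRT34, a hair keratin, was 3.25 times higher in shCON, KRT17 1.34 times, and KRT6A 1.60 times. Of 12 basal and stratified keratins tested, 4 were called higher and 5 lower in shCON (33.3% and 41.7%, against 22.9% and 19.3% of all genes). The median was -0.07 against 0.02 over all genes. The direction of the list turned, with 6 higher and 4 lower in libraries 1 to 3 (median 0.36) against 4 and 7 in libraries 4 to 8 (median -0.26). Keratins are a family of similar sequences, so reads could have been split between members.

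Other genes of squamous differentiation were more often called lower than higher in shCON. Of 16 genes of the cornified envelope and kallikreins tested, 2 were called higher and 8 lower (12.5% and 50%, against 22.9% and 19.3% of all genes), with a median of -0.24. KLK6 (log2 difference -0.99), KLK8 (-0.78) and CALML3 (-0.76) were among the lower genes, whereas SCEL, encoding sciellin of the cornified envelope, was higher (0.93). Among 18 squamous transcription factors 3 were called higher and 8 lower. ELF3, an ETS factor of differentiating epithelium, had a mean of 30.3 ± 2.44 FPKM in the 7 shCON libraries (SD) and 58.7 ± 6.15 in the 8 OlaR libraries, and SOX2 of 0.364 ± 0.157 and 1.47 ± 0.258 FPKM. Among cell adhesion genes, PKP1, encoding a desmosome protein, was lower in shCON (log2 difference -0.92). COL17A1, encoding a hemidesmosome collagen, was higher (0.88, 127 to 139 against 68 to 77.5 FPKM), as was ITGA5 (0.77), encoding an integrin subunit. Of 19 integrins, laminins and their partners, 8 were called higher and 2 lower.

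Cytokine and NF-kB response genes had the highest median of the lists with at least 10 genes tested. Of 25 tested, 16 were called higher and 3 lower in shCON (64% and 12%, against 22.9% and 19.3% of all genes). The median was 0.38 against 0.02 over all genes. IL1A and IL1B, which encode interleukin-1 and were the most abundant, were at 189 to 241 and 183 to 221 FPKM in shCON and at 106 to 147 and 108 to 126 in OlaR. Both were clear of overlap, with log2 differences of 0.76 and 0.79 (limma, adjusted p = 1.05e-06 and 4.94e-10). TNFAIP3, encoding the NF-kB inhibitor A20, was at 19 to 20.5 FPKM in shCON (median 20) and 7.97 to 8.86 in OlaR (median 8.35), 2.36-fold apart. IL32 was 3.24 times, CSF2 (encoding GM-CSF) 3.05 times and PTGS2 (encoding cyclooxygenase-2) 2.32 times higher in shCON. Interleukin-1 family receptors were among the 15 largest rises of all genes: IL1RL1 was at 3.74 to 5.33 against 0.692 to 1.11 FPKM and the decoy receptor IL1R2 at 2.92 to 4.68 against 0.407 to 1.02. Within libraries 1 to 3, 15 genes of the list were called higher and 4 lower, and within libraries 4 to 8, 18 and 2.

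Several EGFR ligands were higher in shCON, and the interval of EGFR itself was near 0. TGFA was at 21.5 to 23.2 FPKM in shCON and 11.4 to 13.8 in OlaR, a log2 difference of 0.78 (standard error 0.04, adjusted p = 1.61e-10, limma). EPGN (0.69) and HBEGF (0.67), which encode epigen and heparin-binding EGF, were also higher without overlap, and BTC, encoding betacellulin and named after its values were seen, was not called (means of 1.17 and 1.42 FPKM). EGFR, the receptor, was at 59.3 to 66.6 FPKM in shCON and 54.1 to 65.3 in OlaR, a log2 difference of 0.11 with a 95% interval of 0.03 to 0.20. In the list of 16 genes of this pathway, 10 were called higher and 2 lower (62.5% and 12.5%), with a median of 0.20. Over all genes these shares were 22.9% and 19.3%.

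AP-1 factors and immediate early genes did not move together. AP-1 is a dimer of FOS and JUN proteins that growth factors and stress induce. FOSL1 was at 303 to 320 FPKM in shCON and 187 to 203 in OlaR (log2 difference 0.66, standard error 0.03, adjusted p = 5.67e-12, limma). FOS was at 11 to 13.1 and 26.3 to 30 FPKM (-1.18), FOSB at 6.92 to 8.49 and 15.4 to 19.6 (-1.09) and JUN at 27.4 to 35.6 and 37.4 to 49 (-0.49). Thus FOSL1 was higher in shCON and the other 3 were higher in OlaR, each without overlap. EGR1 (-0.90) and NR4A1 (-0.87), which serum induces within minutes, were higher in OlaR too. Of 11 AP-1 factors 4 were called higher and 3 lower in shCON (36.4% and 27.3%, against 22.9% and 19.3% of all genes). These counts were 8 and 3 within libraries 1 to 3 (median 0.40) and 2 and 4 within libraries 4 to 8 (median -0.07). Of 14 immediate early genes 6 were called higher and 7 lower, with medians of 0.13 and -0.26 within these ranges.

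Promoters of genes higher in shCON are shown for the letters of the AP-1 site. Of the motifs searched, this one stood furthest above its share of all promoters, and it was picked after the shares were seen. RefSeq gives 300 bases per promoter, 250 before and 50 after the start of the gene (GRCh38.p14, first start where it lists several), which matched 9101 of the 11547 genes. The motif TGANTCA, which reads as the same motif on both strands, was in 8 of 34 matched promoters of the 43 genes at least 2-fold higher in shCON (23.5%), in 1 of 19 of the 25 lower genes (5.26%) and in 394 of all 9101 (4.33%). No test was made. The antioxidant response letters TGACNNNGC can overlap with it, which they did in 42 of the 394 promoters and in 1 of the 8. The 100 bases around the AP-1 match nearest to the start are given in the direction of the gene, with the match in capitals, for the 6 of the 8 genes that are named here.
SERPINB2 (chr18:63887556-63887655, plus strand): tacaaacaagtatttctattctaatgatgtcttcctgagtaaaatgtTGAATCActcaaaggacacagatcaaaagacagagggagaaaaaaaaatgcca
MMP10 (chr11:102780643-102780742, minus strand): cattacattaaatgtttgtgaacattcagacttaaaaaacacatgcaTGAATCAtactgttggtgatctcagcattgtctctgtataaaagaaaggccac
MT2A (chr16:56608433-56608532, plus strand): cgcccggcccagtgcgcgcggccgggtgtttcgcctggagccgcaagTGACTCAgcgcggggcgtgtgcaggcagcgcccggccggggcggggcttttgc
ECM1 (chr1:150507984-150508083, plus strand): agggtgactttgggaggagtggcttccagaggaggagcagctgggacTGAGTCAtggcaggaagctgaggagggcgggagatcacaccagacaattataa
ANKRD1 (chr10:90921230-90921329, minus strand): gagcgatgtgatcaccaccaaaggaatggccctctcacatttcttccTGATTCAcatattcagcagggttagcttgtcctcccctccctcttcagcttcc
IL1RL1 (chr2:102337019-102337118, plus strand): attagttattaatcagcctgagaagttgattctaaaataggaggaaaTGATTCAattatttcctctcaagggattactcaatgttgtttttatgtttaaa

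The match began 102 bases before the start of SERPINB2, 67 before MMP10, 104 before MT2A, 78 before ECM1, 195 before ANKRD1 and 191 before IL1RL1. ECM1, which encodes an extracellular matrix protein, has 2 matches in its 300 bases and was at 6.34 to 7.22 FPKM in shCON and 1.63 to 1.91 in OlaR. A match describes letters only. The C/EBP motif TTGCNNAA, searched on both strands, was in 4 of the 34 promoters (11.8%), in 2 of the 19 of lower genes (10.5%) and in 609 of all 9101 (6.69%). The NF-kB motif was in 9 of 21 promoters of the cytokine list (42.9%) against 13.2% of all promoters. It was in 42.9% for the list of MHC class I presentation too, and in 11.8% of the 34. The antioxidant response letters were in 26.5% of the 34 and 15.5% of all.

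Hypoxia and glycolysis genes were higher in shCON where they differed. Of 35 tested, 16 were called higher and 0 lower (45.7% against 22.9% of all genes higher), although 6 were called lower within libraries 4 to 8 and 2 within libraries 1 to 3. The median was 0.13. NDRG1, a stress-responsive gene, was at 46.7 to 53 FPKM in shCON and 25.7 to 31.4 in OlaR (log2 difference 0.79). BNIP3, a mitophagy receptor, was at 71.7 to 78 and 42.4 to 53.6 FPKM (0.64), CA9, encoding carbonic anhydrase IX, at 40 to 46.2 and 24.3 to 33.2 (0.57), and ENO2, encoding an enolase, at 32.3 to 39 and 22.3 to 26.8 (0.49). All 4 were clear of overlap. GAPDH, the most abundant member, was at 3278 to 3796 and 3439 to 3908 FPKM, with a 95% interval of the log2 difference of -0.13 to 0.04. The core of the hypoxia response element, ACGTG on either strand, was in 13 of 32 promoters of the list (40.6%) and 26.8% of all promoters. This share is not particular to the list. It was 40.7% for cytosolic ribosomal proteins, 40% for G2/M and mitosis genes and 46.7% for excision and mismatch repair. Among the 34 promoters of genes at least 2-fold higher in shCON it was 23.5%. The core is shown in capitals for ANGPTL4, BNIP3, ENO2 and CA9, whose shCON levels were higher.
ANGPTL4 (chr19:8363905-8364004, plus strand): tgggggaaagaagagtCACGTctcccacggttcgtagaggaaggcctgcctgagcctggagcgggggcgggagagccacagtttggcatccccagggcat
BNIP3 (chr10:131982005-131982104, minus strand): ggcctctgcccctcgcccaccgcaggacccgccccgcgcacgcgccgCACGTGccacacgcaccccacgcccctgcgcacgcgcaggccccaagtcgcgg
ENO2 (chr12:6914414-6914513, plus strand): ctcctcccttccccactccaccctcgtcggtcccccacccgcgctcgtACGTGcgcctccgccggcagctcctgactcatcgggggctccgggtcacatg
CA9 (chr9:35673828-35673927, plus strand): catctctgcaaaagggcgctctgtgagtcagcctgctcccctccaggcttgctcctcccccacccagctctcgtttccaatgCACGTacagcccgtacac

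The genes MT2A, MT1X and MT1F were higher in shCON. They encode metallothioneins, small proteins that bind zinc, copper and other metals, and were named for their difference. Of 13 glutathione transferases and metallothioneins tested, 4 were called higher and 3 lower (30.8% and 23.1%, against 22.9% and 19.3% of all genes). The median of this list was 0.02, the same as over all genes. MT2A was at 854 to 1127 FPKM in shCON (median 1042) and 371 to 542 in OlaR (median 434), a 2.27-fold difference (log2 difference 1.19, standard error 0.09, adjusted p = 1.44e-08, limma). MT1X (2.01-fold) and MT1F (1.80-fold) were higher as well. All 3 separated the groups, but they are near-identical in sequence and their reads may have been shared. GSTP1, the main glutathione transferase, was at 1135 to 1217 and 1183 to 1310.3 FPKM, with a 95% interval of the log2 difference of -0.14 to -0.01 (adjusted p = 0.0707, limma).

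Targets of NRF2, the transcription factor of the antioxidant response, were called higher in OlaR more often than in shCON. Of 33 tested, 3 were called higher and 19 lower in shCON and 11 were not called (9.09% and 57.6%, against 22.9% and 19.3% of all genes), with a median of -0.21. AKR1C2, which encodes an aldo-keto reductase acting on steroids, was at 4.66 to 6.05 FPKM in shCON (median 5.43) and 18.8 to 21.5 in OlaR (median 20.2). It was 3.75 times higher in OlaR, a log2 difference of -1.73 (standard error 0.05, adjusted p = 9.52e-15, limma). AKR1B10, another aldo-keto reductase, was at 15.4 to 18.5 and 43.6 to 50.1 FPKM, 2.70 times higher in OlaR. EPHX1, encoding an epoxide hydrolase, was 2.07 times higher (38 to 42.4 against 80.2 to 88.2 FPKM), and AKR1C3 2.57 times. NQO1, a quinone reductase often used to read NRF2 activity, differed by 1.10-fold without overlap, at 327 to 349 and 359 to 391 FPKM. FTH1, encoding the ferritin heavy chain that stores iron, was at 1887 to 2100.1 and 2809 to 3135 FPKM, 1.48 times higher in OlaR and clear of overlap. FTL, encoding the light chain, was at 2763 ± 173 FPKM (SD, n = 7) and 2889 ± 173 (SD, n = 8). Members of the AKR1C family are similar in sequence, so their reads could be exchanged. Taken by library number, 4 were higher and 25 lower in libraries 1 to 3, and 3 and 22 in libraries 4 to 8.

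Other detoxification genes differed in both directions. CES1, which encodes a carboxylesterase, was at 0.276 to 0.621 FPKM in shCON and 2.6 to 3.66 in OlaR. ALDH3A1, encoding the aldehyde dehydrogenase of cornea and squamous epithelium, was at 890.5 to 1099 and 1197 to 1602 FPKM (log2 difference -0.47). ALDH3B1 was lower in shCON too (-0.86). ALDH1A3, an abundant member that makes retinoic acid, was higher in shCON (529 to 548 against 418 to 443 FPKM), as was ALDH1A1. Of 14 aldehyde dehydrogenases 3 were called higher and 7 lower in shCON (21.4% and 50%, against 22.9% and 19.3% of all genes). The drug efflux pumps ABCG2 (8.13 to 10.2 against 11.4 to 14.4 FPKM) and ABCC3 (38 to 43 against 46.9 to 59) were lower in shCON without overlap, in a list of 16 drug and copper transporters of which 3 were called higher and 5 lower (18.8% and 31.2%).

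Genes of the unfolded protein and amino acid stress responses were more often called higher in OlaR. Of 28 tested, 4 were called higher and 13 lower in shCON (14.3% and 46.4%, against 22.9% and 19.3% of all genes), with a median of -0.15. HSPA5, the main chaperone of the endoplasmic reticulum, was at 266 to 299 FPKM in shCON and 386 to 436 in OlaR (log2 difference -0.54). PHGDH, encoding the first enzyme of serine synthesis, was at 70.1 to 79.7 and 98.4 to 129 FPKM (-0.57), and TRIB3, a target of ATF4, at 38.7 to 40.5 and 55 to 63.7 (-0.56). CHAC1, another ATF4 target, was higher in shCON (0.62). Heat shock proteins differed in both directions, with 6 of 13 called higher and 3 lower in shCON (46.2% and 23.1%). Of the cytosolic ones, HSPA8 (0.63) and HSP90AA1 (0.50) were higher in shCON, and HSPB1 was lower (-0.74, 466 to 585 against 774 to 997 FPKM).

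Targets of p53 were more often called higher in shCON. Of 31 tested, 17 were called higher and 3 lower (54.8% and 9.68%, against 22.9% and 19.3% of all genes), with a median of 0.21. CDKN1A, which encodes the cell cycle inhibitor p21, was at 158 to 181 FPKM in shCON and 103 to 128 in OlaR (log2 difference 0.54, standard error 0.05, adjusted p = 3.84e-07, limma). TP53INP1 (0.53), SESN2 (0.38) and the BH3-only gene PMAIP1 (0.37) were higher as well, each without overlap. In the BCL2 family, 7 of 15 genes were called higher and 2 lower (46.7% and 13.3%). These counts were 10 and 0 within libraries 1 to 3 (median 0.26) and 6 and 3 within libraries 4 to 8 (median 0.03). BCL2L1, encoding the survival protein BCL-xL, was at 208 ± 13.2 FPKM (SD, n = 7) and 155 ± 16.3 (SD, n = 8), and the pro-apoptotic BIK at 11.8 ± 1.29 and 5.59 ± 0.836.

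In the Notch pathway 1 of 19 genes was called higher and 7 lower in shCON (5.26% and 36.8%, against 22.9% and 19.3% of all genes). Libraries 1 to 3 alone gave 3 and 4, and libraries 4 to 8 gave 1 and 9. HES1, a transcriptional repressor and Notch target, was at 42.2 to 47 FPKM in shCON and 84.4 to 91.6 in OlaR, a log2 difference of -0.93 (standard error 0.03, adjusted p = 1.72e-13, limma). NOTCH3 (-0.57) and HEY1 (-0.34) were lower in shCON, and the ligand DLL1 was the gene that was higher (0.40). Collagens had the lowest median (-0.27), with 3 of 10 called higher and 7 lower, but this depended on the libraries: 3 were called higher and 1 lower within libraries 1 to 3 and 2 and 7 within libraries 4 to 8. Interferon-stimulated genes were called higher in 17 of 42 and lower in 4 (40.5% and 9.52%). Within libraries 1 to 3 these counts were 12 and 7, with a median of -0.03 rather than 0.10.

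CEBPB was lower in shCON than in OlaR, and the size depended on the library number. Its exons lie on chromosome 20 (50190830 to 50192668) and share 231 bp with CEBPB-AS1 on the opposite strand. CEBPB was at 75.2 to 101 FPKM in shCON (median 85.4) and 97.1 to 127 in OlaR (median 113). The libraries overlapped, and the log2 difference was -0.38 (standard error 0.07, adjusted p = 0.000533, limma; exact permutation test, two-sided, p = 0.000932). Within libraries 1 to 3 it was -0.12 (adjusted p = 0.149, limma) and within libraries 4 to 8 it was -0.55 (adjusted p = 2.59e-05, limma). The mean was 99.7 FPKM in A2780 and 47.1 in shCEBPB. CEBPA, of the same family, was at 2.16 to 3.78 and 4 to 5.59 FPKM (-0.61).

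Repair genes, like most genes, differed little, and their calls depended on the library number. BRCA1, a core gene of homologous recombination, was at 25.6 to 31.9 FPKM in shCON (median 29.1) and 31.2 to 41.6 in OlaR (median 33.1). The log2 difference was -0.29 (standard error 0.07, adjusted p = 0.00466, limma; exact permutation test, two-sided, p = 0.0028). It was -0.58 within libraries 1 to 3 (adjusted p = 2.87e-05, limma) and -0.10 within libraries 4 to 8 (adjusted p = 0.124, limma). BRIP1, the helicase partner of BRCA1, was at 5.38 to 7.38 and 5.25 to 7.83 FPKM, with a 95% interval of -0.18 to 0.17. Its difference was -0.24 within libraries 1 to 3 (adjusted p = 0.0118, limma) and 0.14 within libraries 4 to 8 (adjusted p = 0.125, limma). MCPH1, also known as BRIT1, was at 5.4 to 6.99 and 4.48 to 7.08 FPKM, with an interval of -0.04 to 0.29. It too turned, from -0.14 within libraries 1 to 3 (adjusted p = 0.151, limma) to 0.29 within libraries 4 to 8 (adjusted p = 0.00438, limma). Of 56 genes of homologous recombination and the Fanconi pathway, 4 were called higher and 17 lower in shCON (7.14% and 30.4%). Over all genes these shares were 22.9% and 19.3%. Of the 56, 52 had an interval within 1.5-fold and 0 were called at 2-fold. Over all genes 93.8% had such an interval and 0.589% were called at 2-fold, so these small differences are not particular to the list. The calls were 3 higher and 30 lower in libraries 1 to 3, but 19 and 18 in libraries 4 to 8. All 11547 genes gave 2797 and 2683 in libraries 1 to 3, and 3591 and 2929 in libraries 4 to 8. RMI2 (-0.52), RBBP8 (-0.51) and FAN1 (-0.38) were lower and XRCC2 was higher (0.34) in shCON in both ranges. In the other repair lists, all 35 excision and mismatch repair genes, all 22 checkpoint genes, all 18 end joining genes and all 19 PARP and PARG genes had intervals within 1.5-fold. Their calls varied with the library number too: of the checkpoint genes 1 was called higher and 10 lower within libraries 1 to 3, and 10 and 5 within libraries 4 to 8. PARP1, the target of olaparib, was at 118 to 127 and 129 to 143 FPKM (log2 difference -0.16).

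Cell cycle genes also depended on the library number. Of 36 G2/M and mitosis genes 10 were called higher and 3 lower in shCON (27.8% and 8.33%, against 22.9% and 19.3% of all genes). The counts were 4 and 11 within libraries 1 to 3, but 25 and 5 within libraries 4 to 8. Of 42 DNA replication genes 5 were called higher and 13 lower (11.9% and 31%). Those counts were 2 and 23 within libraries 1 to 3 and 10 and 14 within libraries 4 to 8. Among cytosolic ribosomal proteins 2 of 38 were called higher and 3 lower, and among respiratory chain subunits 4 and 4 of 35. Every member of both lists had an interval within 1.5-fold, as had 93.8% of all genes. For ribosomal proteins 14 were higher and 4 lower in libraries 1 to 3, against 2 and 13 in libraries 4 to 8. For the respiratory chain the same counts were 14 and 2, against 5 and 12.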

How the data were processed

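Groups and replicate numbers came from the sample labels. The members and gene lists were chosen with earlier results of these data known. The deposited values are FPKM, which the authors made in 1 table for all libraries; per their methods and processing notes, reads were checked with FastQC, TopHat aligned them to hg38, and HTSeq gave the reads of each gene. How FPKM were computed from them and with which gene annotation is not given in the sources used here, and the authors' own tests (edgeR) were not used. Of 19225 entries, 4 with repeated symbols were left out, and 23 symbols turned into dates are not named. Positions came from GENCODE 44 by symbol (95.1% matched).

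The 2 groups alone entered a two-sided limma test (version 3.58.1 in R 4.3.3; lmFit, then eBayes with its trend option) of log2(FPKM + 1), with Benjamini-Hochberg adjustment over all 11547 genes. Single genes also had an exact permutation test over 6435 splits. The 48 lists (1260 genes) had no test. On simulated data for this comparison with 11547 genes, 27 of 50 genes changed by 0.25 on the log2 scale were found, 46 of 50 changed by 0.5, and 50 of 50 changed by 1 and by 2, and 6.49% of calls were false. The simulated noise was independent between genes and libraries. It held no difference between library numbers, so this share of false calls may not hold for the real libraries. Named genes are those the study names, the 15 largest rises and falls without overlap, in each list up to 4 called members of largest difference without overlap, and those of highest mean FPKM. Chromosome arms were replaced by 10 Mb windows, since no source used here gives centromeres. Depth came from 2926 low values, of which 89.8% lay within 0.05 of a whole step, so it is relative only and gives no interval for counting error. Summaries and plots were made in pandas 2.3.3, scipy 1.17.1, numpy 2.4.6 and matplotlib 3.10.9 under Python 3.11.15. Alternatives were pseudocount, filter, scaling, GC content and gene length correction, 1 fit of all 4 groups, replicate blocks, library ranges, leaving out shCON replicate 1, a rank test and a stricter threshold. Some genes are not reported here.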

Additional observations from a re-analysis of the deposited data

Results flagged for a closer look

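Among the named genes, the FPKM of 502 groups of 7 or 8 libraries were checked for a library far from the others of its group, and 8 stood apart (1.59%), where chance alone gives about 1 in 20. In shCON replicate 4 these were DHRS9 at 7.74 FPKM (5.56 to 6.46 in the other libraries), MSMO1 at 50.7 (43.8 to 46) and ORC6 at 71.3 (63.7 to 66.1). In shCON replicate 7, KRT6A was at 37.4 FPKM (30.9 to 33.4) and UQCRC1 at 189.6 (166 to 176), and in shCON replicate 1, KRTAP2-3 was at 5.15 (3.36 to 4.06). In OlaR, C1R was at 8.82 FPKM in replicate 3 (11.5 to 13.2 in the others) and PMAIP1 at 14.1 in replicate 6 (15.5 to 16.1).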

How the results depend on the processing

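The count of 2-fold genes was 60 to 80 under 13 of the 15 alternatives, 134 with a pseudocount of 0.1 and 45 with the filter at 5 FPKM. Genes within 1.5-fold numbered 16401 without the filter, which tests more genes. The count of called genes lay between 3406 (adjusted p under 0.01) and 6520 (libraries 4 to 8), and was 3436 with the replicate number as a block. Same-numbered libraries did not deviate together (mean r -0.261 over 7 pairs, 2 of them over 0.1, and 1 library was most like its own number), so the numbers do not pair the libraries. Counts of list members called lay within 1.5 times in 612 of 672 values. The share of called genes that were higher in shCON was 54.3%, and between 49.1% and 55.9% in the alternatives. Of all 253 named genes tested, 194 gave the same result in all settings. All 44 named 2-fold genes kept their direction and call in each of the 15 alternatives in which they were tested. The filter at 5 FPKM left low genes such as MMP10 untested. Many of the 44 were named for lack of overlap, which favours a stable call. Within libraries 1 to 3 the direction turned for ADAM9 (-0.01), COL16A1 (0.02), DMKN (0.24), FZD6 (-0.14), HMGA1 (0.07), JUNB (0.26), PKMYT1 (0.36), PTTG1 (-0.07) and RPL27 (0.14), and within libraries 4 to 8 for S100A6 (-0.22). The cause was not tested. FPKM without read totals limit what can be said of genes near 0.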

Other observations

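Differences of genes that lie next to each other were small along most chromosomes. In 278 windows of 10 Mb with at least 10 genes tested, the median log2 difference lay between -0.19 and 0.20, and in 247 windows it was within 0.1 of 0. The window with the highest median was the first 10 Mb of chromosome 11, where 53 of 87 genes (60.9%) were called higher and 9 lower in shCON, against 22.9% and 19.3% of all genes. Its median was 0.22 after a correction for GC content and length, 0.31 within libraries 1 to 3 and 0.15 within libraries 4 to 8. In the next window, from 10 to 20 Mb, 19 of 37 genes were called higher and 0 lower, with a median of 0.15, of 0.06 within libraries 1 to 3 and of 0.25 within libraries 4 to 8. The lowest median was in the first 10 Mb of the X chromosome, where 1 of 13 genes was called higher and 5 lower, and it was -0.04 within libraries 1 to 3. The genes for IFITM1 (log2 difference 0.66), IFITM3 (0.29), IRF7 (0.55) and PHLDA2 (0.73) all lie at the start of chromosome 11.

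Genes for which deletions are common were detected in both groups or in neither. GSTM1, encoding a glutathione transferase, was listed at 0 in all 15 libraries of shCON and OlaR, and was at 58.4 to 78.4 FPKM in the shCEBPB libraries. GSTT1 was at 28.7 to 36.3 FPKM in shCON and 32.8 to 38.4 in OlaR, ERAP2 at 3.08 to 4.13 and 2.41 to 4.36, and CDKN2A at 243 to 346 and 329 to 477.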
